A study of Mus musculus with 8 samples.

Results

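T cells were a small population among the brain cells recovered after experimental stroke: 660 of 39608 kept cells, or 1.67%. They were chosen by the raw transcript counts (unique molecular identifiers, UMIs) of each cell. A cell was taken when Cd3e, Cd3d and Cd3g, which encode the signalling chains that accompany the T cell receptor, gave at least 2 UMIs together. It also had to hold no UMI of the B cell gene Cd79a or the mast cell gene Cpa3, at most 2 of Csf1r (microglia and macrophages) and at most 1 of Csf3r (neutrophils). The values of these genes chose the cells and are given below only as a description. Kept cells had at most 10% of their UMIs from mitochondrial genes, and 337 of the 39945 deposited cells were left out by this limit.

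T cells recognise antigen through a receptor made either of alpha and beta chains or of gamma and delta chains. Alpha-beta T cells divide into CD4 cells, which help or, when they express Foxp3, restrain other immune cells, and CD8 cells, which can kill target cells with granzymes and perforin. Naive T cells recirculate through blood and lymph nodes using Ccr7 and S1pr1, whereas memory T cells that stay in a tissue carry Cd69 and Cxcr6. The healthy brain holds few T cells, mostly at its borders, and gamma-delta T cells that release interleukin 17 are known from work on stroke.

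The cells came from male C57BL/6J mice aged 8 to 9 weeks in which a suture had closed the middle cerebral artery for 60 min before reperfusion. There were 8 libraries, 1 for each combination of hemisphere (ipsilateral or contralateral to the occlusion), genotype label (WT, also written Prdx1+/+, or Prdx1-/-) and time (24 h or 48 h). All animals had the occlusion, so the contralateral hemisphere of an injured brain, not an uninjured brain, was the reference. Brains were perfused, dissociated with enzymes and freed of myelin on Percoll, and live cells were sorted with a viability dye and no cell type marker. How many mice made up a library is not in the sources used here, so the p-values below are read against the spread of these libraries alone, part of which may be technical.

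The libraries held 39433266 to 70111421 UMIs as deposited. Summed over their T cells, they held 194517 to 866961 UMIs, and the median T cell had 5998.5 UMIs and 1987.5 detected genes (library medians 5679 to 6354.5 UMIs). No T cell barcode occurred in the T cells of 2 libraries, and 5 of the 660 barcodes matched a cell of any type in another library. Prdx1, the targeted gene, was not at 0 in every library labelled Prdx1-/-. In T cells of the libraries labelled Prdx1-/- it was at 30.8 CPM (a gene's UMIs over all UMIs of the summed cells, times 1e6; contralateral, 24 h), 193 CPM (ipsilateral, 24 h), 0 CPM (contralateral, 48 h) and 1.38 CPM (ipsilateral, 48 h, from 1 UMI). In the libraries labelled WT it was at 190.2, 214, 236 and 294 CPM in the same order. The ipsilateral 24 h library labelled Prdx1-/- thus lay inside the WT range, so "Prdx1-/-" below names the label only, and no knockout effect is read from the 24 h libraries.

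The T cell label was checked against receptor genes the rule did not use. Trbc2, a constant segment of the receptor beta chain, was detected in 621 of the 660 cells at 1287 CPM, against 2.89 CPM in all other kept cells. Trac, the alpha chain constant segment (chromosome 14, 54220521 to 54224206, plus strand, GRCm38 with GENCODE M21), was detected in 458 cells at 407 CPM, against 0.758 CPM elsewhere. Natural killer cells, gated on Ncr1 and Klrb1c without CD3 UMIs, held Trbc2 at 310 CPM, Trbc1 at 449 CPM and Trac at 10.8 CPM. T cells held Trbc1 at 716 CPM. A Trbc1 or Trbc2 UMI therefore does not by itself separate T cells from natural killer cells. The median T cell held 14 UMIs of the 3 CD3 genes. Near the threshold the picture was weaker: of the 19 cells with exactly 2 CD3 UMIs, 52.6% had a Trbc1 or Trbc2 UMI, against 99.0% of the 621 cells with 4 or more. Just outside it, 52 cells had 1 CD3 UMI and met the other limits, and 21.2% of them had a Trbc1 or Trbc2 UMI. A further 120 cells with 2 or more CD3 UMIs were left out because of another marker, 76 of them by Csf3r and 65 by Csf1r. Of these 120, 64.2% had a Trbc1 or Trbc2 UMI, 44.2% a Trac UMI and 48.3% at least 10 UMIs of S100a8 and S100a9. They numbered 40 in the ipsilateral Prdx1-/- 48 h library and 4 to 25 in each of the others, and the T cell shares below do not count them.

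Clustering of the 660 cells gave 10 clusters, which describe the mixture and carry no test. The largest (114 cells) was led by Tnfrsf4 and Cd4 together with the interferon-induced genes Ifit3 and Isg15 and the cycling gene Top2a. Another pair was led by genes of naive cells: Ly6c1, Igfbp4 and Ccr7 in 78 cells with little Cd8b1 (21.9 CPM), and Dapl1, Cd8b1 and Ccr7 in 74 cells, whose leading genes also included hemoglobin transcripts. Gzmk, Cd8a, Cd8b1 and Ccl5 led 68 cells. Trdv4 and Trdc, both gamma-delta receptor genes, led 54 cells, 39 of them from the ipsilateral WT 48 h library, so that this cluster may be that library and not a type. Pxdc1, Lmo4, Ramp1 and Tmem176b led 70 cells that also held Il17a (249 CPM) and Trdc (721 CPM), and Ikzf2 and Myb led 41. In 41 more, Gzma and Ccl5 (17676 CPM) came beside Ttr and Enpp2, transcripts known from the choroid plexus.

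The last 2 clusters were led by genes of other cell types. Ncr1, Xcl1 and Klrb1c, genes of natural killer cells, led 93 cells in which Trac stood at 254 CPM and Trbc2 at 1063 CPM. Ngp, S100a8 and Camp, genes of neutrophils, led 27 cells, with S100a8 at 53337 CPM, Trac at 80.8 CPM and a median of 17063 UMIs, against 5998.5 in all T cells. Together these 120 cells made up 18.2% of the T cells, and counts below are given with and without them.

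As a share of all kept cells, T cells were not shown to differ between hemispheres, times or genotype labels. Contralaterally, the WT 24 h library held 32 T cells (0.675%), the Prdx1-/- 24 h library 40 (0.769%), the WT 48 h library 115 (2.77%) and the Prdx1-/- 48 h library 77 (1.78%). In the same order, which is kept for all lists of 4 values by hemisphere below, the ipsilateral libraries held 59 (1.11%), 114 (2.0%), 127 (2.47%) and 96 (1.90%). The ipsilateral share was the higher in 3 of the 4 matched pairs, and the groups overlapped. The means were 1.87% ± 0.56 ipsilaterally and 1.50% ± 0.98 contralaterally (SD, n = 4 libraries each; difference of mean log2 share 0.51, two-sided exact permutation test p = 0.343, adjusted over 3 tests 0.514).

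**Figure D1:**
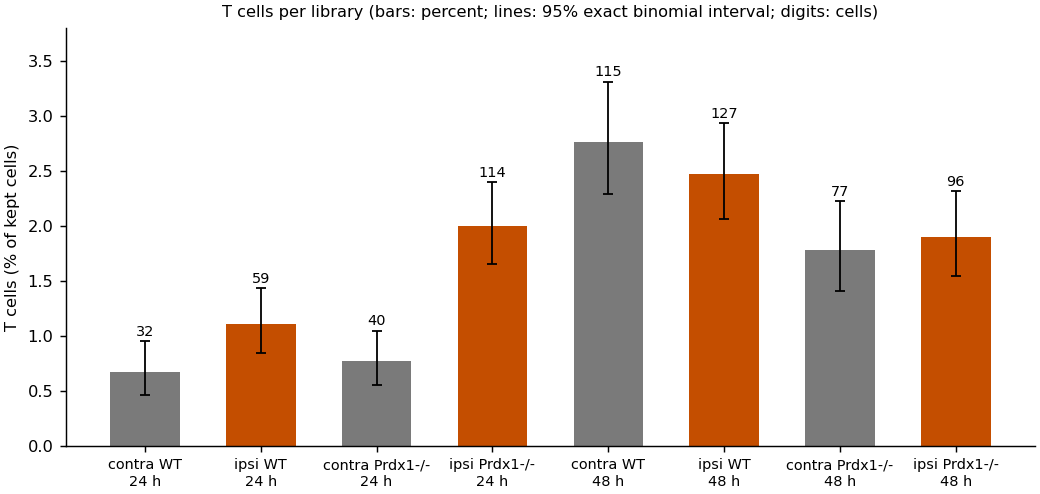
T cells as percent of kept cells in each of the 8 libraries (bars, from 0), with 95% exact binomial intervals (lines, counting error only) and the number of T cells above; grey is contralateral and orange ipsilateral. The 2 contralateral 24 h libraries are the lowest, at 0.675% and 0.769%, and the contralateral WT 48 h library the highest, at 2.77%.

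Time showed the wider gap. The 48 h libraries averaged 2.23% ± 0.47 and the 24 h libraries 1.14% ± 0.60 (SD, n = 4), a difference of 1.08 on the log2 scale that was in the same direction in 3 of 4 pairs (exact permutation p = 0.0857, adjusted 0.257). Natural killer cells, gated without CD3, were 0.533% to 0.650% of cells at 48 h and 0.0577% to 0.421% at 24 h (log2 difference 1.86, exact permutation p = 0.0286, the smallest that 4 against 4 libraries allow, not adjusted and chosen after the values were seen). By genotype label the T cell means were 1.61% ± 0.57 and 1.76% ± 1.02 (Prdx1-/- and WT; n = 4 each; log2 difference 0.0057, exact permutation p = 1).

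The hemisphere result turned with the denominator. Among cells with at most 2 Csf1r UMIs, which leaves out most microglia and macrophages, T cells were 11.7%, 23.7%, 18.7% and 10.98% contralaterally and 3.90%, 4.97%, 5.54% and 3.10% ipsilaterally. The 2 groups did not overlap, and the T cell share was lower ipsilaterally in all 4 pairs (log2 difference -1.85, exact permutation p = 0.0286). Cells with a neutrophil profile were 44 to 287 per contralateral library and 1003 to 1979 per ipsilateral library. With cells of more than 1 Csf3r UMI also left out of the total the difference was -1.23 on the log2 scale (exact permutation p = 0.0286). The time difference was -0.15 and -0.06 under these 2 denominators and neither had a p under 0.05. The p-values of these alternatives were not adjusted.

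Which T cells were present was read from gates on single transcripts, after every T cell had been thinned to 1500 UMIs (2 shallower cells left out), so that depth was equal. Across 7 gates and 3 factors, 0 of 21 exact permutation tests passed after Benjamini-Hochberg adjustment (smallest adjusted p = 0.5), and 1 had an unadjusted p under 0.05. The gates are a floor, since a transcript at a low level is often missed. In the neutrophil gate and the Csf1r gate, where these transcripts should be absent, the CD8 gate took 0% of 6161 and 0.0342% of 26334 thinned cells (median depth before thinning 4945 and 9420.5 UMIs).

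CD8 cells were gated on Cd8a or Cd8b1 without Cd4 and Trdc. They made up 45% and 35.1% of contralateral and 33.6% and 34.4% of ipsilateral T cells in the libraries labelled Prdx1-/- (24 h and 48 h). In the libraries labelled WT they made up 18.8% and 20.2% contralaterally and 25.4% and 17.3% ipsilaterally. The 2 labels did not overlap: 37.0% ± 5.4 against 20.4% ± 3.5 (SD, n = 4), higher with the Prdx1-/- label in 4 of 4 pairs (exact permutation p = 0.0286, adjusted over 21 tests 0.5). Before thinning the gate took 35.1% to 50% with the Prdx1-/- label and 18.8% to 30.5% with the WT label. The 24 h libraries labelled Prdx1-/- held Prdx1 transcripts, so label and loss of the gene cannot be told apart here. As summed levels, Cd8a (fitted log2 difference 0.85, SE 0.20) and Cd8b1 (0.81, SE 0.23) were higher with the Prdx1-/- label in 4 of 4 pairs and did not pass over all genes (edgeR adjusted p = 0.222 and 0.549).

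**Figure D2:**
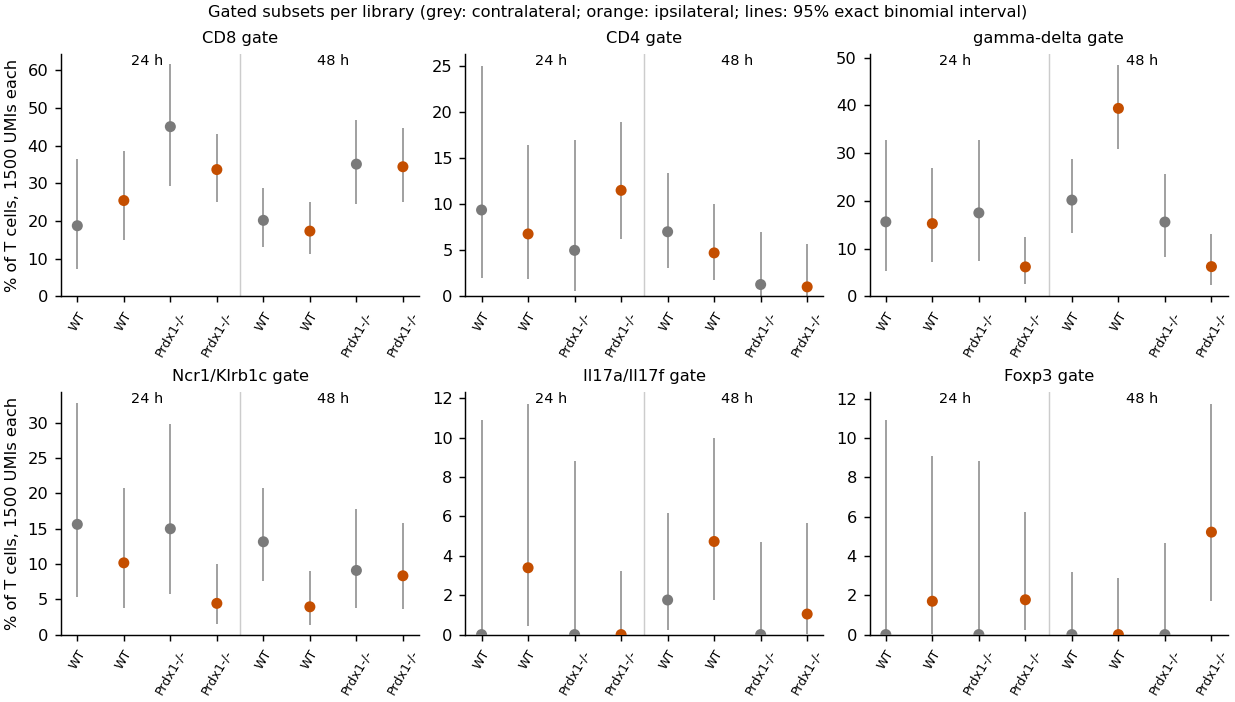
Percent of T cells inside 6 gates in each library, with every cell thinned to 1500 UMIs (points; lines are 95% exact binomial intervals; grey contralateral, orange ipsilateral; each y axis starts at 0 and has its own scale). The CD8 gate lies at 33.6% or above in all 4 libraries labelled Prdx1-/- and at 25.4% or below in all 4 labelled WT, and the gamma-delta gate stands at 39.4% in the ipsilateral WT 48 h library.

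CD4 cells were fewer in the gate, from 1.04% to 11.5%, and Cd4 itself was low (38.6 CPM in all T cells, against 276 CPM for Cd8b1). At 48 h the gate took 7.02% and 1.299% of contralateral and 4.72% and 1.04% of ipsilateral T cells (WT and Prdx1-/-), below the matched 24 h library in 4 of 4 pairs (3.52% ± 2.87 against 8.16% ± 2.86, SD, n = 4; exact permutation p = 0.0857, adjusted 0.5). Before thinning it took 5.19% to 27.2%, and the contralateral WT pair went the other way (17.4% at 48 h, 15.6% at 24 h). Foxp3, the regulator of regulatory T cells, was found in 0 of the thinned cells of all 4 contralateral libraries and in 0% to 5.21% of ipsilateral cells (5 of 96 in the Prdx1-/- 48 h library; exact permutation p = 0.143, adjusted 0.5). Before thinning it was detected in 13 cells, 1 of them contralateral. The contralateral zeros, from 32 to 114 cells, allow shares of up to 2.63% to 9.38% in a library, counted as cells with a Foxp3 UMI at this depth and not as cells expressing the gene.

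The gamma-delta gate stood out in a single library. The gate on Trdc without Cd4 and Cd8b1, where Trdc is the delta chain constant segment (chromosome 14, 54142851 to 54148868, plus strand, GRCm38), took 15.6%, 17.5%, 20.2% and 15.6% of contralateral and 15.3%, 6.19%, 39.4% and 6.25% of ipsilateral T cells. The ipsilateral WT 48 h value, 50 of 127 cells, had a 95% exact binomial interval of 30.8% to 48.4%, above the upper limit of 28.7% in the matched contralateral library. Before thinning the gate took 39.4% there and 7.89% to 23.5% elsewhere. With 1 library per combination this difference has no replicate. The gate means of the hemispheres were 16.8% ± 15.7 ipsilaterally and 17.2% ± 2.2 contralaterally (SD, n = 4; exact permutation p = 0.943). The Trdc level followed the gate, at 1010.4 CPM in the ipsilateral WT 48 h library and 63.7 to 397 CPM in the other 7. A Trdc UMI does not by itself make a gamma-delta T cell. Natural killer cells, gated without CD3, held Trdc at 60.7 CPM, against 369 CPM in T cells. Of the 139 cells in the unthinned gate, 118 held Tcrg-C1, a gamma chain gene, while 29 held Klrb1c and 22 held Trac.

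Il17a, the interleukin 17 gene, was detected in libraries labelled WT and not in those labelled Prdx1-/-. It gave 30 UMIs in 3 cells (ipsilateral WT, 24 h; 66.2 CPM), 20 UMIs in 4 cells (contralateral WT, 48 h; 25.7 CPM) and 102 UMIs in 12 cells (ipsilateral WT, 48 h; 118 CPM), and 0 UMIs elsewhere. Il17f gave 1 UMI each in the ipsilateral WT and ipsilateral Prdx1-/- 48 h libraries. The contralateral WT 24 h library, with 32 T cells, also gave 0. After thinning, the Il17a or Il17f gate differed between the labels by 2.21 percentage points (lower with the Prdx1-/- label in 3 of 4 pairs; exact permutation p = 0.143, adjusted 0.5). A zero in the Prdx1-/- libraries allows up to 3.49 to 11.6 CPM if UMIs are independent. The Il17a UMIs lay together in few cells, so that limit is too low. Counted as cells before thinning, the zeros allow 7.5% (contralateral, 24 h), 2.63% (ipsilateral, 24 h) and 3.90% (contralateral, 48 h). The unthinned gate took 1.04% in the ipsilateral Prdx1-/- 48 h library. With the WT label it took 5.08% (ipsilateral, 24 h), 3.48% (contralateral, 48 h) and 10.2% (ipsilateral, 48 h). Of the 21 cells with an Il17a or Il17f UMI, 16 lay in the unthinned gamma-delta gate. These 21 cells held Trdv4 (12 cells), Cd163l1 (14), Blk (14) and the receptors Il1r1 (12) and Il23r (9).

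Cells with natural killer receptor transcripts (Ncr1 or Klrb1c) were a lower share of ipsilateral T cells in 4 of 4 pairs. The values were 15.6%, 15%, 13.2% and 9.09% contralaterally and 10.2%, 4.42%, 3.94% and 8.33% ipsilaterally (means 13.2% ± 2.9 and 6.72% ± 3.0, SD, n = 4; exact permutation p = 0.0571, adjusted 0.5). Before thinning the values were 18.3% to 34.4% contralaterally and 7.89% to 16.9% ipsilaterally, without overlap. Cycling cells, with Mki67 or Top2a, were 5.43% ± 0.56 contralaterally and 7.93% ± 4.1 ipsilaterally (exact permutation p = 0.343). The same gate took 3.49% of neutrophil-gate cells.

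More genes passed by hemisphere than by time or genotype label. Raw UMIs were summed over the T cells of each library and fitted with edgeR, with hemisphere, genotype label and time as additive terms. In ipsilateral T cells 88 genes (1.48%) rose and 73 (1.23%) fell among the 5947 tested, at a Benjamini-Hochberg adjusted p under 0.05, and 829 had an unadjusted p under 0.05. DESeq2 called 70 higher and 35 lower. Sums over T cells mix subsets, so a change in which T cells were present and a change within them cannot be told apart.

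Transcripts of other cells moved with hemisphere. The 12 monocyte and macrophage markers summed to 833 to 1487 CPM in contralateral and 2117 to 3597 CPM in ipsilateral T cells, without overlap, and none was at 0 in all libraries. The 10 neutrophil markers summed to 30.8 to 6902 CPM and 303 to 57570 CPM. The 12 microglia markers lay the other way, at 548 to 925 CPM and 274 to 650.3 CPM. Of the 88 higher genes, 58 had a higher mean level in the other cells of the libraries than in T cells, as had 16 of the 73 lower genes and 47.9% of all genes tested. Without the natural killer-led and neutrophil-led clusters, 35 genes were higher and 31 lower (5004 tested), of which 27 and 25 were among the 88 and 73. The monocyte and macrophage sum was then 553 to 1324 CPM and 884 to 1561 CPM. With every cell of more than 2 myeloid UMIs left out, 12 were higher and 10 lower (2827 tested). Without the ipsilateral Prdx1-/- 24 h library 72 genes were called in all, and without the contralateral Prdx1-/- 48 h library 75. How far such transcripts set the calls was not tested beyond these counts.

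The differences that held in most alternatives included falls of genes that T cells expressed above the other cells. Zfp36l2, an RNA-binding protein that shortens the life of cytokine messages, stood at 1429, 1326, 1553 and 1570.1 CPM in contralateral and 818, 643, 862 and 647 CPM in ipsilateral T cells. It fell by 0.99 on the log2 scale (SE 0.10, edgeR adjusted p = 1.02e-06). Bcl2, which protects lymphocytes from apoptosis, was at 828, 995, 642 and 967 CPM contralaterally and 437, 411, 321 and 476 CPM ipsilaterally. Its ipsilateral level fell by 1.05 (SE 0.13, edgeR adjusted p = 1.82e-05). For both genes the groups did not overlap. These 2 genes were outside the rule for named genes and were chosen after their values were seen. They and Dusp1, which other cells expressed more than T cells, passed in each of the 21 alternative analyses, and adjusted p without both clusters was 2.07e-04 for Zfp36l2 and 0.0032 for Bcl2 (edgeR).

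Dusp2, Dusp1, Socs2 and Cish were also among the genes that fell. Dusp2, a phosphatase that switches off MAP kinases in activated T cells, was at 1136, 933, 553 and 959 CPM contralaterally and 351, 280.4, 118 and 241 CPM ipsilaterally (log2 difference -1.89, SE 0.27, edgeR adjusted p = 0.0174), and it missed the threshold in 1 alternative, without the ipsilateral Prdx1-/- 24 h library (edgeR adjusted p = 0.0543). Dusp1, of the same family, fell by 1.13 (SE 0.17, edgeR adjusted p = 4.58e-04). Socs2 and Cish, inhibitors of cytokine receptor signalling through STAT proteins, fell by 1.92 (SE 0.26, edgeR adjusted p = 7.50e-05) and 1.15 (SE 0.20, edgeR adjusted p = 0.00127). Socs2 stood at 149, 61.7, 78.3 and 93.3 CPM contralaterally and 30.9, 15.1, 34.6 and 18.0 CPM ipsilaterally, and missed the threshold without both clusters (edgeR adjusted p = 0.0550). Socs2 and Cish also missed it with cells of more than 2 myeloid UMIs left out and in the libraries labelled WT alone. Genes of the same families moved the other way: Socs3 rose by 0.99 (SE 0.20, edgeR adjusted p = 0.0126; other cells held more) and Dusp10 by 0.86 (SE 0.21, 0.0224). Both lie outside the rule for named genes and were chosen after their values were seen. Without both clusters Socs3 passed and Dusp10 did not (edgeR adjusted p = 0.0105 and 0.0616), and they kept their calls in 15 and 8 of 21 alternatives. Of the 17 tested genes of the immediate-early list, 2 fell (Dusp1 and Dusp2) and 0 rose, against 1.23% and 1.48% of all genes tested. The other 15, Fos and Jun among them, did not pass.

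**Figure D3:**
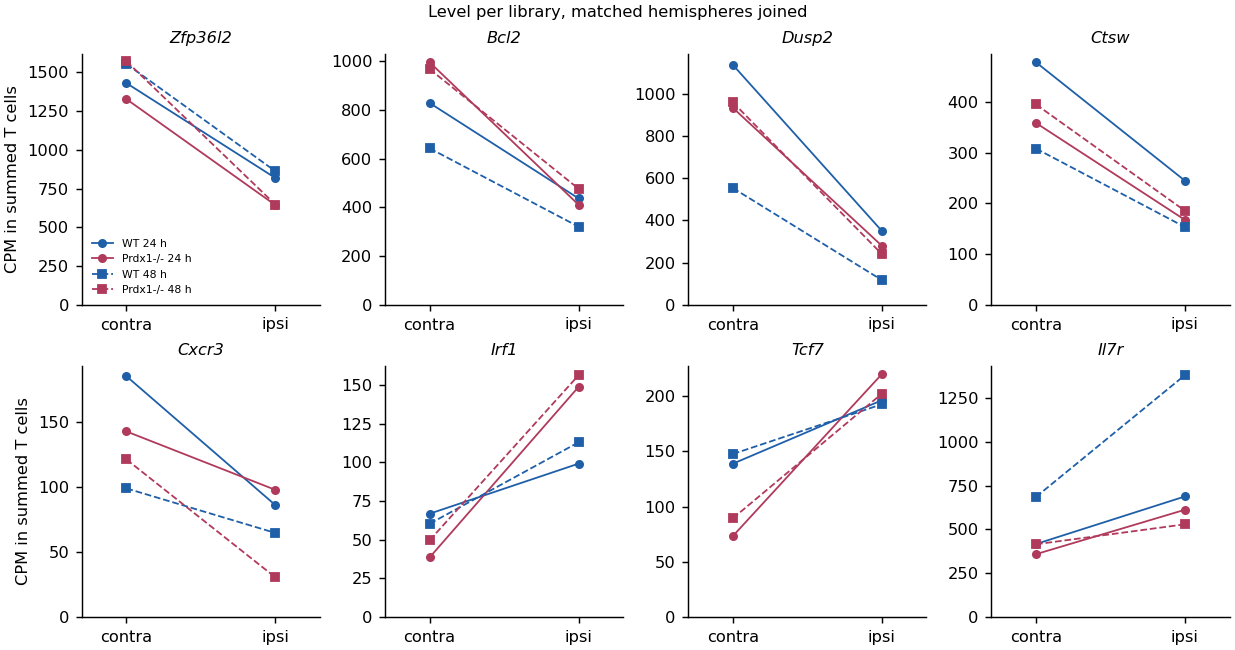
Level of 8 genes in the summed T cells of each library (y axes in CPM, from 0, own scale), with the matched contralateral and ipsilateral libraries joined by a line; solid lines are 24 h and dashed lines 48 h, blue is the WT label and red the Prdx1-/- label. Zfp36l2, Bcl2, Dusp2, Ctsw and Cxcr3 are lower and Irf1, Tcf7 and Il7r higher ipsilaterally in all 4 pairs.

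Of 10 tested genes of tissue-resident memory T cells, 4 fell on the injured side, 1 rose and 5 did not pass. Of their fitted values 4 were above 0, and the list's median log2 difference was -0.85 against -0.01 over all genes tested. Over all genes tested 1.23% fell and 1.48% rose, and these shares are the background of the list counts below as well. Those that fell were Rgs1, which damps chemokine receptor signalling (-1.10, SE 0.17, edgeR adjusted p = 0.00362; other cells held more), Cxcr3, the receptor for interferon-induced chemokines (-0.999, SE 0.20, 0.00404), Cd69 (-0.83, SE 0.19, 0.0251) and Bhlhe40 (-0.87, SE 0.21, 0.0321). Cxcr3 stood at 185, 143, 98.8 and 121 CPM contralaterally and 86.0, 97.7, 64.6 and 30.5 CPM ipsilaterally. Crem, a cAMP-responsive transcription factor, was the member that rose (1.57, SE 0.28, edgeR adjusted p = 0.0110). Cxcr6, at 560.4, 443, 294 and 289.8 CPM contralaterally and 176, 111, 287 and 92.8 CPM ipsilaterally, was lower in 4 of 4 pairs without overlap. It did not pass by edgeR (-1.28, SE 0.37, adjusted p = 0.211) and did by DESeq2 (adjusted p = 3.70e-04). Without both clusters Rgs1 and Cxcr3 passed (edgeR adjusted p = 0.00187 and 0.0281), and Cd69, Bhlhe40 and Crem did not (0.0711, 0.333 and 0.233). With cells of more than 2 myeloid UMIs left out, neither Rgs1 (-0.60, edgeR adjusted p = 0.381) nor Cxcr3 (-0.55, 0.485) passed, and neither did in the libraries labelled WT alone. With the matched pair as a block Bhlhe40 by hemisphere missed the threshold (edgeR adjusted p = 0.0594).

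Of 17 tested members of the CD8 and cytotoxic list 5 fell, 0 rose, and the median log2 difference was -0.75. Over all genes tested 1.23% fell, 1.48% rose and the median was -0.01. Ctsw, a cathepsin of cytotoxic lymphocytes, was at 478, 359, 308 and 395 CPM contralaterally and 245, 168, 153 and 186 CPM ipsilaterally (-1.03, SE 0.16, edgeR adjusted p = 3.08e-04). The others were the granule gene Nkg7 (-0.75, adjusted p = 0.0263), the death ligand Fasl (-0.75, 0.0156), the inhibitory receptor Klrc1 (-0.81, 0.00967) and Cd8a (-0.77, 0.0404), all from edgeR. The groups overlapped for Fasl and Cd8a. Ctsw and Fasl passed without both clusters (edgeR adjusted p = 0.0110 and 0.0436), while Nkg7 (0.680), Klrc1 (0.676) and Cd8a (0.0511) did not. With cells of more than 2 myeloid UMIs left out neither Ctsw (-0.76, edgeR adjusted p = 0.0831) nor Fasl (-0.41, 0.654) passed, and Fasl kept its call in 12 of 21 alternatives. With the matched pair as a block Cd8a by hemisphere missed the threshold (edgeR adjusted p = 0.0699). The 12 natural killer markers summed to 948 to 1650.2 CPM in contralateral and 987 to 2216 CPM in ipsilateral T cells. In the other kept cells the same markers summed to more, 4376 to 4890 CPM contralaterally and 4910 to 6129 CPM ipsilaterally. The sum therefore does not measure natural killer content, and the Ncr1 or Klrb1c gate above was lower ipsilaterally in 4 of 4 pairs. Ccl5, among the highest of all T cell genes here, was at 4704, 4691, 4500 and 3908 CPM contralaterally and 4368, 3679, 2786 and 1707 CPM ipsilaterally (-0.58, SE 0.15, edgeR adjusted p = 0.125). Ifng, the interferon gamma gene, was at 365, 84.8, 56.5 and 135 CPM and 44.1, 27.9, 31.1 and 13.8 CPM, lower in 4 of 4 pairs without overlap. It did not pass by edgeR (-2.34, SE 0.63, adjusted p = 0.217) and did by DESeq2 (adjusted p = 1.22e-05). Without both clusters its highest value, in the contralateral WT 24 h library, was 148 CPM.

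Of 13 tested naive and recirculating genes 3 rose and 0 fell, all 13 fitted values were above 0, and the median log2 difference was 0.87. Over all genes tested 1.48% rose, 1.23% fell and the median was -0.01. Tcf7, a transcription factor of naive and stem-like T cells, rose from 139, 73.2, 148 and 89.3 CPM contralaterally to 196, 219.9, 193 and 202 CPM ipsilaterally (0.87, SE 0.19, edgeR adjusted p = 0.0115). Satb1, a chromatin organiser of T cells, rose by 0.91 (SE 0.19, 0.0120), and Il7r, the interleukin 7 receptor that sustains resting T cells, by 0.74 (SE 0.16, 0.0251), both from edgeR. The homing genes S1pr1 (1.13, SE 0.29, edgeR adjusted p = 0.0948) and Ccr7 (0.91, SE 0.43, 0.449) did not pass. S1pr1 was higher in every ipsilateral library, at 183, 229, 167 and 209 CPM against 123, 65.5, 123 and 53.6 CPM. Without both clusters Il7r passed (edgeR adjusted p = 0.0152), and Tcf7 (0.0737) and Satb1 (0.324) did not. With cells of more than 2 myeloid UMIs left out none of the 3 passed (edgeR adjusted p = 0.236 for Tcf7, 0.0505 for Satb1 and 0.0505 for Il7r). The erythrocyte markers, which also led the Dapl1 cluster, summed to 11.6 to 242 CPM in contralateral and 223 to 15190.2 CPM in ipsilateral T cells. Their part in these results was not tested.

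**Figure D4:**
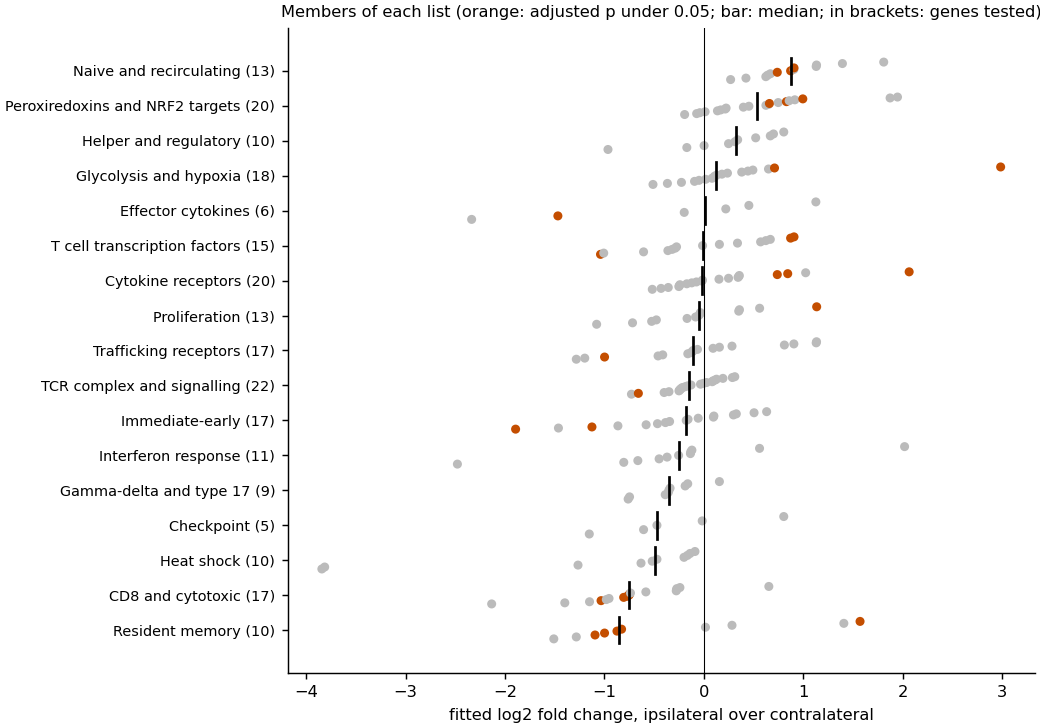
Fitted log2 differences, ipsilateral over contralateral, of the tested members of 17 gene lists in T cells (x axis; 1 point per gene, orange where the edgeR adjusted p was under 0.05, black bar at the list's median; numbers of tested genes in brackets). The naive and recirculating list has the highest median, 0.87, and the resident memory list the lowest, -0.85.

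Of the other named genes that rose, Irf1, an interferon-induced transcription factor, was at 66.8, 38.5, 60.3 and 49.6 CPM contralaterally and 99.2, 149, 113 and 156 CPM ipsilaterally (1.27, SE 0.22, edgeR adjusted p = 8.94e-04). It passed in 20 of 21 alternatives, the exception being the 4 libraries labelled WT alone (edgeR adjusted p = 0.497). Ifngr2, a chain of the interferon gamma receptor, rose by 2.07 (SE 0.30, edgeR adjusted p = 2.33e-04) and Il4ra, a chain of the interleukin 4 receptor, by 0.84 (SE 0.22, 0.0336). Other cells held more of both than T cells. With Il7r they were the 3 of 20 cytokine receptors that rose, and 0 fell. The cell cycle regulator Rgcc (1.59, SE 0.30, edgeR adjusted p = 0.0224), the triglyceride synthesis enzyme Dgat1 (1.42, SE 0.27, 0.00823) and the centromere histone Cenpa (1.14, SE 0.22, 0.00318) also rose. Without both clusters Dgat1 did not pass (edgeR adjusted p = 0.229), and with cells of more than 2 myeloid UMIs left out Rgcc did not (0.245). Cenpa was the single member of 13 in the proliferation list that passed.

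The largest fitted rises were in genes that other cells expressed more strongly. Cxcl2, a neutrophil-attracting chemokine, was at 10.3, 11.6, 16.7 and 23.8 CPM in contralateral and 895, 979, 291 and 695 CPM in ipsilateral T cells, and the other cells of the ipsilateral libraries held 5576 CPM on average. Its log2 difference was 5.17 (SE 0.42, edgeR adjusted p = 0.00340), and 2.44 without both clusters. Thbs1 (4.17), Tgfbi (3.67), Ier3 (2.95), Alox5ap (2.59) and Msrb1 (1.298) also passed, with more in the other cells than in T cells. Without both clusters Ier3 no longer passed (edgeR adjusted p = 0.586), nor did Msrb1 (0.484), and Thbs1, Tgfbi and Alox5ap were too low to be tested. In the list of peroxiredoxins and NRF2 targets, 3 of 20 rose (Ftl1 by 0.66, Gsr by 0.996 and Sqstm1 by 0.83) and 0 fell. All 3 were higher in other cells, and none passed without both clusters (edgeR adjusted p = 0.104, 0.756 and 0.333). The same held for the 2 risers of 18 glycolysis and hypoxia genes: Ldha (0.71) lost its call (0.148), and Vegfa (2.99) was not tested.

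Further named genes were lower on the ipsilateral side. Serpina3g, a protease inhibitor of activated lymphocytes, fell by 1.35 (SE 0.21, edgeR adjusted p = 3.11e-04), and Id2, a transcriptional regulator of effector T cells, by 1.04 (SE 0.15, 3.11e-04; other cells held more). Adam19 (-1.34), Mdfic (-1.15), the adhesion scaffold Nedd9 (-1.15), the calcineurin subunit Ppp3cc (-1.09) and the death ligand Tnfsf10 (-1.47) passed as well, with edgeR adjusted p from 0.00194 to 0.0174. Nedd9 and Ppp3cc did not pass without both clusters (edgeR adjusted p = 0.0823 and 0.164), and Tnfsf10 was too low to be tested there. Mdfic kept its call in 13 and Adam19 in 18 of 21 alternatives. Serpina3g, Adam19 and Mdfic lost theirs with cells of more than 2 myeloid UMIs left out and in the libraries labelled WT alone. Tnfsf10 was the single one of 6 effector cytokines to pass, Cxcr3 the single one of 17 trafficking receptors, and Id2, Tcf7 and Satb1 the 3 of 15 transcription factors.

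The receptor machinery gave few calls by hemisphere. Of 22 tested genes of the T cell receptor complex and its signalling, which include the 3 CD3 genes of the rule, only the surface glycoprotein gene Thy1 passed (-0.66, SE 0.14, edgeR adjusted p = 0.00792, and 0.109 without both clusters). Trac, outside the rule, differed by 0.08 (SE 0.15). The list's median was -0.15, but the CD3 genes in it chose the cells, so their values are a description and no support. None of the 10 helper and regulatory, 9 gamma-delta and type 17, 5 checkpoint, 10 heat shock or 11 interferon response genes tested passed in either direction. In the heat shock list 10 of 10 fitted values lay below 0 (median -0.50, against -0.01 over all genes tested). The checkpoint gene Pdcd1 was at 134, 143, 248 and 87.3 CPM contralaterally and 132, 91.9, 397 and 54.0 CPM ipsilaterally, with overlap. Gzmb, a granzyme, was at 391, 366, 443 and 480.4 CPM contralaterally and 1190.7, 155, 246 and 219 CPM ipsilaterally, its highest value in the WT 24 h library. Without both clusters the contralateral WT 24 h value was 9.87 CPM and the ipsilateral one 923 CPM.

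**Figure D5:**
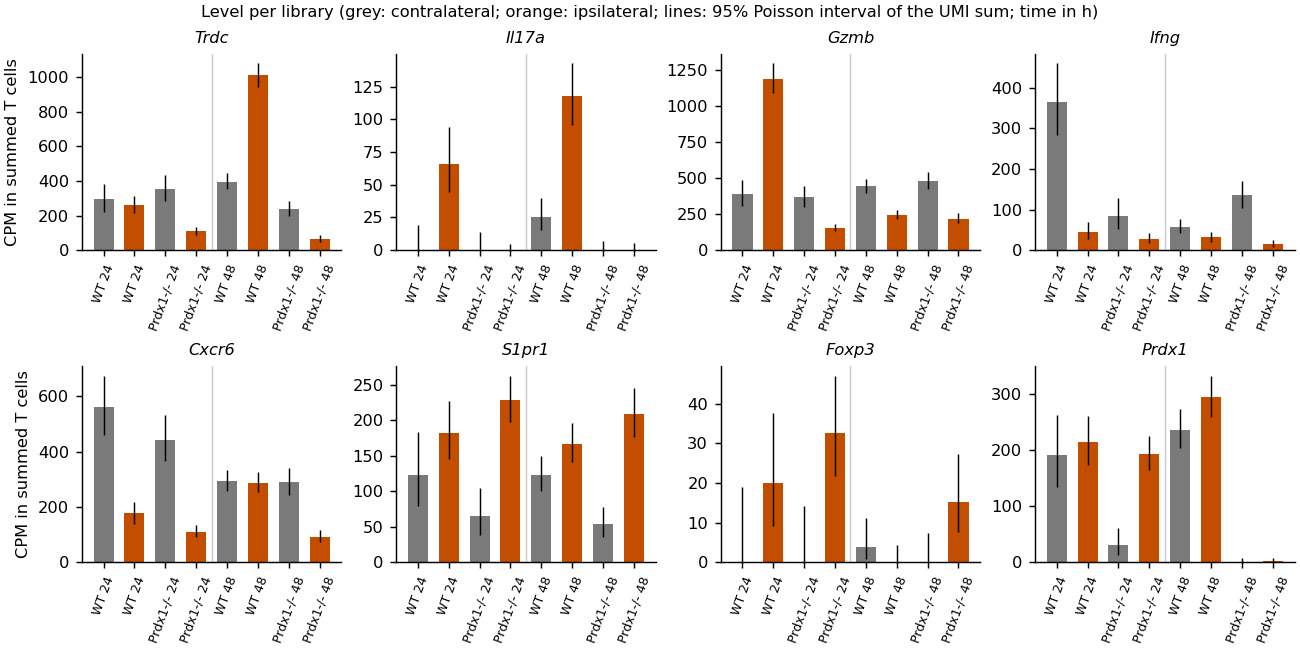
Level of 8 genes in the summed T cells of each library (bars, CPM, from 0, own scale; lines are 95% Poisson intervals of the UMI sum, which cover counting error only; grey contralateral, orange ipsilateral; 24 h left and 48 h right of the grey line). Trdc and Il17a are highest in the ipsilateral WT 48 h library, at 1010.4 and 118 CPM, and Prdx1 is at 193 CPM in the ipsilateral 24 h library labelled Prdx1-/-.

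Few genes passed by time. Between 48 h and 24 h 4 of 5947 genes (0.0673%) passed, all lower at 48 h, and 369 had an unadjusted p under 0.05. Lars2, a mitochondrial leucyl-tRNA synthetase, was at 468, 478, 223 and 263 CPM in the 24 h libraries (contralateral WT and Prdx1-/-, then ipsilateral) and 149, 171, 148 and 143 CPM in the 48 h libraries. Its log2 difference was -1.16 (SE 0.17, edgeR adjusted p = 0.00518), without overlap. The other cells of the libraries also held less Lars2 at 48 h, 131 CPM on average against 262 CPM at 24 h. The others were the microglial complement genes C1qb (-1.34, SE 0.23, edgeR adjusted p = 0.0314) and C1qa (-1.46, SE 0.27, 0.0489) and the nuclear RNA Malat1 (-0.29, SE 0.06, 0.0489). C1qa and C1qb, outside the rule for named genes and named because 4 genes passed, are microglia markers. In the other cells they averaged 4317 and 4349.8 CPM at 48 h and 7001 and 6740 CPM at 24 h. Malat1 averaged 14226 CPM there at 48 h and 19686 CPM at 24 h. All 4 genes thus fell in the other cells too, and whether any of these falls is particular to T cells was not tested. Without the contralateral Prdx1-/- 48 h library, or without the natural killer-led cluster, 0 genes passed by edgeR (378 and 343 with an unadjusted p under 0.05), and DESeq2 called 4 genes, 1 higher and 3 lower. Of the 4 called by edgeR, Lars2 passed with DESeq2 (adjusted p = 9.62e-04), and C1qb (0.0909), C1qa (0.195) and Malat1 (0.695) did not. None of the 17 gene lists had a member that passed. The nearest genes in each direction were Slamf7 (-1.16, edgeR adjusted p = 0.212), Tmcc1 (1.25, 0.227) and Hip1r (1.11, 0.275).

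By genotype label 3 of 5947 genes (0.0504%) passed, all higher with the Prdx1-/- label, and 348 had an unadjusted p under 0.05. They were Mcemp1 (2.37, SE 0.38, edgeR adjusted p = 0.0108), Clec4e (2.09, SE 0.33, 0.0112) and Gsr (1.33, SE 0.25, 0.0270), all expressed more strongly by the other cells. Mcemp1 was at 0, 11.03, 2.57 and 20.8 CPM with the WT label (contralateral and ipsilateral at 24 h, then at 48 h) and at 0, 39.6, 23.8 and 96.9 CPM with the Prdx1-/- label. DESeq2 called 6 genes and none of these 3 (adjusted p = 0.517 for Mcemp1, 0.340 for Clec4e and 0.9999 for Gsr). Without the neutrophil-led cluster 0 genes passed by edgeR (318 with an unadjusted p under 0.05). That cluster gave 11 of its 27 cells to the ipsilateral Prdx1-/- 48 h library. The count was also 0 without the ipsilateral Prdx1-/- 24 h library, 21 without the ipsilateral WT 24 h library, and 51 in the 48 h libraries alone. Prdx1 itself did not pass over the 8 libraries (-2.50, SE 1.3, edgeR adjusted p = 0.931). In the 48 h libraries alone Prdx1 by genotype label passed (edgeR adjusted p = 2.20e-06). That fit and its count of 51 rest on 4 libraries, 1 per combination of label and hemisphere. Their p-values therefore lean on a spread shared across genes. The fitted difference of Prdx1 there, -8.03, is no bound, since the libraries labelled Prdx1-/- held 0 and 1 UMI.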

How the data were processed

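Raw UMI counts per gene and cell (whole numbers, no normalization) were deposited by the authors, 1 table per library, and per the submitters' processing notes Cell Ranger, Seurat and mm10 were used, with no versions or roles given. As deposited, cells had at least 501 UMIs and at most 19.9% mitochondrial UMIs. T cells were taken by the stated rule. The members, gene lists and tests were chosen with earlier results of these data known.

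Shares were compared by two-sided exact permutation of 4 against 4 libraries (70 splits, smallest p 0.0286; scipy 1.17.1). The libraries of the other factors served as replicates, since no combination had any. T cell counts were summed per library and fitted with edgeR 4.0.16 in R 4.3.3 (TMM, filterByExpr, robust quasi-likelihood test), adjusted by Benjamini-Hochberg over all genes tested. The standard error is the fold change divided by the root of the F statistic. DESeq2 1.42.0 was an alternative. On simulated counts for the hemisphere comparison (5947 genes), edgeR recovered 56 of 100 genes changed 2-fold and 98 of 100 changed 4-fold, with 7 false calls. The simulated libraries shared a single mean profile and the dispersion trend. They held no spread particular to a gene, no mixture of subsets and no transcripts of other cells, so these counts do not give the error in the real data. Clusters were made with scanpy 1.11.5 (Leiden, resolution 0.8, 1500 variable genes, 15 principal components). Python 3.11.15, numpy 2.4.6, pandas 2.3.3 and matplotlib 3.10.9 were used.

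The rule for named genes took, per direction, the 10 largest changes among genes past the threshold whose sign was the same in all 4 pairs and whose mean reached 50 CPM. Mitochondrial, hemoglobin, ribosomal protein and rule genes and markers of other cells were left out. Where fewer than 3 qualified, the 3 smallest p-values were taken. Each list added its 4 members of smallest p, and a fixed set of receptor, subset and effector genes was added. The text gives a part of them, and some genes are not reported here.

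No doublets were removed. The automatic threshold of Scrublet marked 463 kept cells and 1 to 4 in 5 libraries, so the alternative left out the cells of highest score instead, at a rate of 0.8% per 1000 cells (1583 cells, 16 of them T cells), a departure from the planned calls. Intervals and limits from counts cover counting error only, and a count of 0 was taken to allow 3 UMIs or cells. Limits in UMIs take each UMI as independent and are too low where a gene's UMIs lie together in few cells. Genes sharing reads with near copies may be split by the counting. The alternatives are in the closing section. Leaving out the natural killer-led and neutrophil-led clusters was added after the data were seen.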

Additional observations from a re-analysis of the deposited data

Results flagged for a closer look

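Among 26 values per library, each looked at in the 4 ipsilateral and the 4 contralateral libraries (52 groups), 4 groups held a library whose gap to the nearest of the other 3 passed Dixon's 95% limit; chance gives about 1 in 20. Gzmb stood at 1190.7 CPM in the ipsilateral WT 24 h library, against 155 to 246 CPM in the other ipsilateral libraries. The contralateral WT 48 h library was the only contralateral library with Foxp3 (3.85 CPM) or Il17a (25.7 CPM), and with cells in the Il17a or Il17f gate (1.75%), against 0 in the other 3. With the other 3 at 0 any value above 0 passes that limit. The Foxp3 value is 3 UMIs in 1 cell, below the 5.95 to 15.4 CPM that the zeros in the other libraries allow, and the gate's 1.75% is below the 3.90% to 9.38% they allow, so neither was shown to differ.

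For 3 genes the ipsilateral minus contralateral difference had one sign in both pairs of one kind and the other sign in both pairs of the other kind. The mean difference of Trac was 138 CPM at 24 h and -68.5 CPM at 48 h, and that of Cd4 was 24.5 CPM at 24 h and -14.6 CPM at 48 h. For Il2ra it was 34.9 CPM with the WT label and -15.3 CPM with the Prdx1-/- label. With 2 pairs of each kind these differences were not tested.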

How the results depend on the processing

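The T cell share by hemisphere changed sign with the denominator, to -1.85 (log2) among cells with at most 2 Csf1r UMIs and -1.23 with at most 1 Csf3r UMI as well. The share by time went to -0.152 and -0.0608. The share by genotype label, near 0 throughout, was -0.0589 and -0.117 there, -0.0392 with 3 or more CD3 UMIs, -0.00325 with doublets left out and -0.167 with cells thinned to 1500 UMIs before the rule, and ran from -0.380 to 0.330 with single libraries left out. The Mki67/Top2a gate by hemisphere was -0.368 points with doublets left out, and the gamma-delta gate by hemisphere ran from -7.99 points without the ipsilateral WT 48 h library to 3.07 without the ipsilateral Prdx1-/- 24 h library. Klf2 by hemisphere was -0.00644 in the 48 h libraries and -0.155 in the libraries labelled WT.

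Of the 161 genes called by hemisphere, the count became 105 with DESeq2, 403 with no filter on low counts, 22 without cells of over 2 myeloid UMIs, 83 without cells with a natural killer receptor UMI, 107 with doublets left out, 98 without the natural killer-led cluster, 66 without both clusters and 29 in libraries labelled WT. With single libraries left out it ran from 72 to 211. The 4 genes called by time became 95 with no filter, 2 with 3 or more CD3 UMIs, 2 without natural killer receptor cells, 0 without the natural killer-led cluster and 9 in libraries labelled WT, and 0 to 16 with single libraries left out. The 3 called by genotype label became 6 with DESeq2 (none of the 3 among them), 124 with no filter, 9 without natural killer receptor cells and 51 at 48 h. They became 0 with 3 or more CD3 UMIs, without myeloid UMIs, with doublets left out, without the neutrophil-led cluster and without both clusters, and 0 to 21 with single libraries left out. Fewer libraries, cells or genes entered several of these fits, and beyond that the cause was not tested.

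The labels carry no replicate numbers. With the matched pair as a block 113 genes were higher and 84 lower by hemisphere. All 46 genes named and called by hemisphere kept their sign in every alternative in which they were tested. Only 5 of the 46 kept their call in each of those, and 3 were called in all 21. The alternatives share most of their cells, so an unchanged sign is weak evidence. With at most 127 T cells in a library, absence of a call does not show that a gene was unchanged.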
